A study of Xenopus tropicalis with 18 samples.

Results

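The hindgut-specific genes are 67 of the 28863 gene identifiers measured in dissected Xenopus tropicalis embryos at Nieuwkoop-Faber stage 33, a tailbud stage. They were chosen from the counts by a fixed limit. The mean level in control hindgut was at least 1 CPM (counts scaled to one common total for every library), at least 4 times that in control foregut and at least 4 times that in control head with pharynx. High hindgut and low foregut and head with pharynx values are therefore the choice itself and not a result. What was left to ask is how these genes behaved in foregut of treated embryos, whose 9 libraries the rule did not use. The genes were, however, chosen with earlier results of these data known.

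Each library came from a pool of 8 explants of mesoderm with endoderm, from wild-type embryos of a Nigerian stock, and every group had 3 libraries. Hindgut control embryos and head with pharynx control embryos carried 0.1% DMSO. Rfx6 morpholino foregut came from embryos with 0.1% DMSO and 1 ng of a morpholino against rfx6, injected at the 2-cell stage at 500 pg per cell. Cyclopamine foregut came from embryos in 40 µM cyclopamine, which blocks the Hedgehog signal transducer Smoothened. BMS493 foregut came from embryos in 100 nM BMS493, a compound that keeps retinoic acid receptors in a repressing state. Both drugs were given from stage 15 to stage 33. Foregut control embryos carried 0.1% DMSO and 1 ng of a morpholino with mismatches. The labels name no morpholino for the drug-treated, hindgut and head with pharynx embryos, so drug and morpholino differ together in each comparison of a drug group with control foregut or with Rfx6 morpholino foregut. DMSO is not named for the drug groups either. Treatment reached the whole embryo, since drugs were in the medium or oligos in both cells.

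The hindgut is the posterior end of the gut tube, from which the large intestine and cloaca form. In vertebrates its identity is set by posterior signals, among them Wnt, FGF and retinoic acid, acting through Cdx and posterior Hox genes, while lower exposure to these signals lets anterior endoderm form pharynx and foregut organs. Rfx6 is a transcription factor of gut and pancreatic endoderm, known in mouse for its need in endocrine cell formation. Hedgehog ligands from gut endoderm pattern the surrounding mesoderm. The files name genes only by identifiers, and none of the 28863 matched the 28858 RefSeq genes in the reference table. It is therefore not known which of the 67 are Cdx, Hox or other named genes, no sequence or genome position can be given, and neither the tissue labels nor the lowering of rfx6 could be checked against marker genes. A fall in these bulk libraries cannot tell fewer cells of a type from less RNA per cell, and likewise for a rise.

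Totals lay between 26006163 and 96814679 counts per library, so that 1 CPM stood for at least 26 counts. By the median log2 difference, replicates 1 and 2 of each treated group lay closer together than any other replicates. The median absolute log2 difference between them was 0.0621 in Rfx6 morpholino, 0.0489 in cyclopamine and 0.0450 in BMS493 foregut, where all other replicate pairs of the series lay between 0.0923 and 0.170. They differed by more than sampling noise, with a chi-square per degree of freedom of 78.9 in Rfx6 morpholino, 42.3 in cyclopamine and 3.57 in BMS493 foregut. All other replicate pairs had 10.3 to 70.4 on this measure, which grows with depth, so by it only the BMS493 pair was closer than the rest. The labels do not say whether they shared explants or RNA. The counts of called genes are therefore also given with these replicates summed, which treats them as 1 library.

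The 67 genes spanned a wide range of levels in hindgut. The highest had 783, 1335 and 989 CPM in the hindgut libraries, against 109, 188 and 112 CPM in control foregut and 6.22, 5.74 and 10.8 CPM in head with pharynx. That gene held 37.8% of all counts of the 67 in hindgut, and the top 3 genes held 57.7%. Of the 67 genes 39 had a mean of at least 10 CPM in hindgut and 28 had 1 to 10 CPM, with a median of 11.8 CPM over the genes. On the per-length scale of the deposited TPM the highest had 238 TPM in hindgut, the median was 7.33 TPM and the lowest 0.640 TPM. A transcript length relative to other genes, read from the ratio of counts to TPM in the deepest library, could be had for 66 of them. Its median was 1.01 times that of all 15206 genes with a value, with quartiles of 0.710 and 1.35 against 0.622 and 1.58 for all genes.

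The values of the other control regions are given as a description of the choice. In 54 of the 67 the level was higher in control foregut than in head with pharynx, and in 13 it was lower. The median fold of hindgut over foregut was 7.6 and over head with pharynx 17.0. The level was at least 10 times that of foregut in 28 genes, at least 10 times that of head with pharynx in 49, and at least 100 times that of both regions in 8. Each of the 3 hindgut libraries lay above each of the 6 other control libraries in all 67, which the rule all but fixes. Of all 18551 genes tested 13.8% had hindgut above foregut in this way and 23.8% hindgut above head with pharynx, and nothing is read from the contrast. In 59 genes each hindgut library lay above each of the 15 other libraries of the series. For the 6 control libraries among these the rule all but fixes this. The share over all genes was not counted, and nothing is read from the 59. The median coefficient of variation between libraries was 15.8% over the 67 genes in hindgut and 28.6% in Rfx6 morpholino foregut, against 7.74% and 7.08% over all genes at 1 CPM or more in the same group, with no matching on level.

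**Figure D1:**
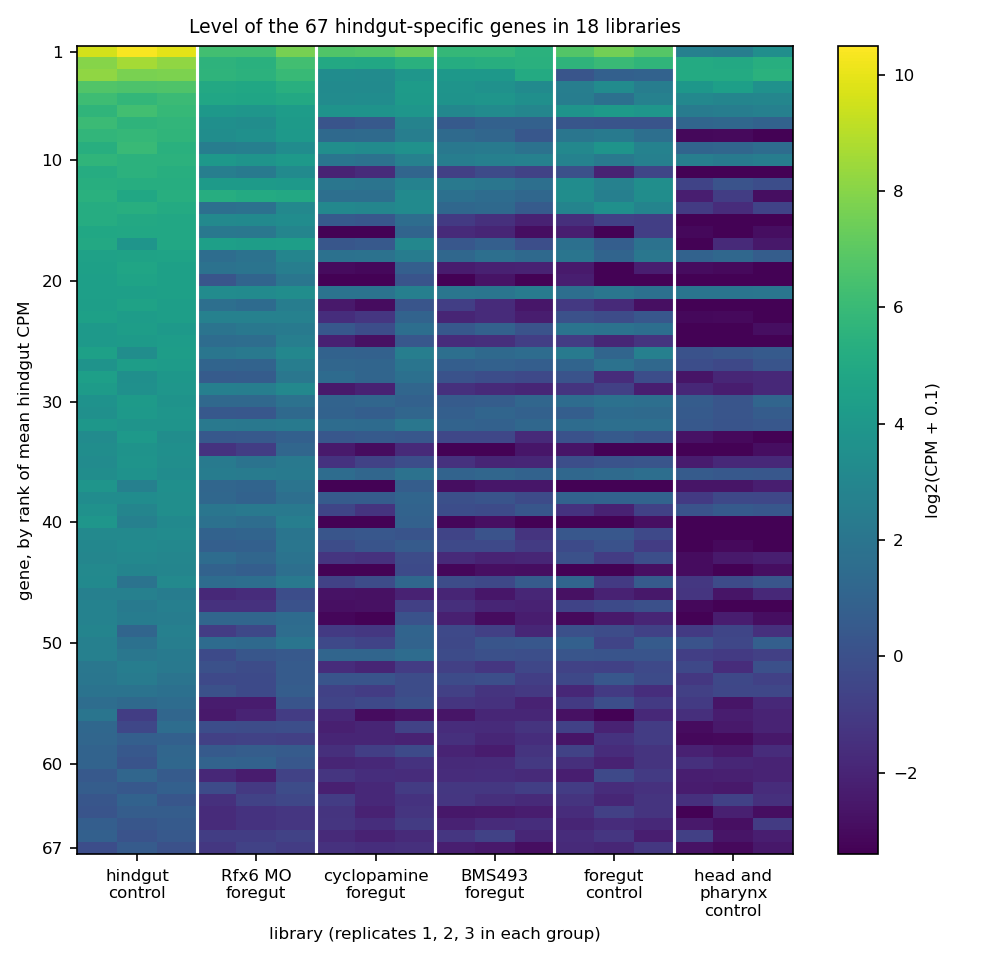
Level of each hindgut-specific gene (MO stands for morpholino), as log2(CPM + 0.1), in rows ordered by mean hindgut CPM, with 3 libraries per group in columns. The Rfx6 morpholino columns are brighter than the other foregut columns over most rows, and in the cyclopamine group the last library (replicate 3) is brighter than replicates 1 and 2.

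The limits of the choice fell within a continuous range. The 3 genes just inside the fold limit had 1.39, 1.36 and 1.63 CPM in hindgut and were 4.05, 4.06 and 4.06 times the higher of the other regions. The 3 just outside had 33.6, 2.21 and 1.93 CPM in hindgut at 3.99, 3.86 and 3.81 times. At the level limit the 3 lowest genes inside had 1.36, 1.35 and 1.06 CPM in hindgut, and the 3 highest outside that met the fold limits had 0.878, 0.727 and 0.699 CPM.

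Summed over the 67 genes, the level was 2515, 3080 and 2634 CPM in the hindgut libraries. Rfx6 morpholino foregut had 499, 481 and 763 CPM, cyclopamine foregut 258, 258 and 422 CPM, BMS493 foregut 205, 212 and 206 CPM, and control foregut 285, 381 and 295 CPM. Head with pharynx had 134, 139 and 157 CPM. All 3 Rfx6 morpholino libraries lay above all control foregut libraries, all 3 BMS493 libraries lay below them, and in the cyclopamine group replicates 1 and 2 lay below and replicate 3 above them. Without the highest gene the sums were 422, 403 and 563 CPM in Rfx6 morpholino foregut and 176, 193 and 183 CPM in control foregut. The number of the 67 genes at 1 CPM or more was 48, 49 and 55 in Rfx6 morpholino, 30, 30 and 44 in cyclopamine and 23, 26 and 25 in BMS493 foregut, against 29, 29 and 30 in control foregut.

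**Figure D2:**
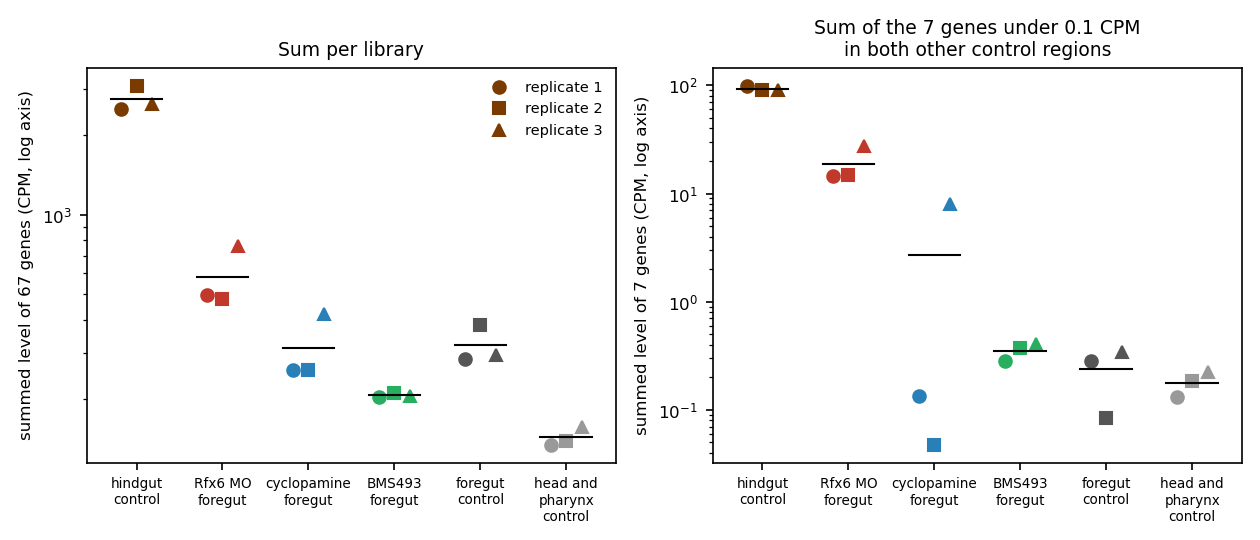
Summed CPM per library on log axes, for the 67 hindgut-specific genes (left) and for the 7 of them below 0.1 CPM in both control foregut and head with pharynx (right). Points are libraries, with a shape for each replicate, and lines are means of 3. Rfx6 morpholino libraries stand between hindgut and the other foregut groups in both panels, and cyclopamine replicate 3 stands apart from replicates 1 and 2.

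Rfx6 morpholino foregut addresses the loss of Rfx6, and many hindgut-specific genes rose in it. Of the 67 genes 65 could be tested in the fit of the 12 foregut libraries. In Rfx6 morpholino foregut 33 of the 65 (50.8%) were higher than in control foregut, where 8.25% of all 18542 genes tested were higher, and 30 of them by at least 2-fold, against 2.41% of all genes. None was called lower, where 8.99% of all genes were (adjusted p under 0.05 by Benjamini-Hochberg, in edgeR's quasi-likelihood test, n = 3 each). At an unadjusted p under 0.05 1 was lower and 42 were higher. For counts at an unadjusted p, here and below, the share over all genes was not taken, so no result about the 67 is read from them. DESeq2 called 33 higher and 1 lower, against 9.82% and 11.3% of all genes. The median log2 fold change was 1.26 over the 65 genes (quartiles 0.31 and 2.89, median SE 0.41) and 0.00 over all genes. In 42 of the 65 every Rfx6 morpholino library lay above every control foregut library, against 20.4% of all genes tested. Among these were all 33 genes called higher. Some genes near 0 CPM in the other foregut groups, such as the gene at rank 34 in hindgut, passed the filter on low counts through their Rfx6 morpholino level. Without that filter all 67 could be tested, and 31 were higher and 0 lower, against 6.29% and 6.37% of all genes.

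Low values in control foregut were part of the choice, which favours a rise over the same libraries. When genes were chosen with 2 control foregut libraries and the Rfx6 morpholino group was compared with the remaining control library alone, 12 of 67, 14 of 79 and 9 of 64 genes were higher and 0, 9 and 0 lower, for control replicates 1, 2 and 3 held out (edgeR, adjusted p under 0.05). Over all genes 3.72%, 10.2% and 5.96% were higher and 3.46%, 10% and 5.21% lower in these fits. The control arm was then 1 library, which is assumed to vary like the libraries of the treated groups. The medians of the chosen genes were 1.23, 0.96 and 1.53 on the log2 scale. With all control libraries, 15 of 65 were higher and 0 lower when replicates 1 and 2 of the treated groups were summed, against 3.15% of all genes higher. At an unadjusted p under 0.05 37 were then higher and 0 lower. Leaving out control replicate 2 or 3 left 20 of 66 higher in each case, where 7.24% and 7.05% of all genes were.

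Set against the drug-treated groups, the Rfx6 morpholino group is compared with libraries that the rule did not use. The fit shared by all foregut groups also held the control foregut libraries, and the genes were chosen with earlier results known. Here 35 of the 65 genes (53.8%) were higher in Rfx6 morpholino than in cyclopamine foregut, where 10.2% of all genes were, and 1 was lower, against 11.1% of all. The median log2 fold change was 1.55 over the 65 genes and -0.00 over all genes. Every Rfx6 morpholino library lay above every cyclopamine library in 44 of the 65, against 22% of all genes. In BMS493 against Rfx6 morpholino foregut 51 of the 65 genes (78.5%) were lower in BMS493, against 19.7% of all genes, with a median of -1.60 over the 65 and -0.01 over all genes. No gene of the 65 was higher in BMS493 by edgeR, by DESeq2 or at an unadjusted edgeR p under 0.05, where 17.3% of all genes were called higher. All BMS493 libraries lay below all Rfx6 morpholino libraries in 53 of the 65, against 20.5% of all genes. The 65 include genes that passed the filter on low counts through their Rfx6 morpholino level, which favours both results. Without that filter 34 of 67 were higher in Rfx6 morpholino than in cyclopamine foregut, against 7.39% of all genes. In BMS493 against Rfx6 morpholino foregut 47 of 67 were then lower, against 14.3%. With control foregut left out of the fit, which then held only the 6 libraries compared, 28 of 66 genes were higher in Rfx6 morpholino than in cyclopamine foregut, against 14.8% of all genes, and 49 of 66 were lower in BMS493 than in Rfx6 morpholino foregut, against 20.4%. In the shared fit, higher in Rfx6 morpholino foregut than in both drug groups were 33 genes, against 5.17% of all genes. These contrasts cannot tell a rise with Rfx6 morpholino from a fall with a drug. Over control foregut the median log2 fold change of the 65 was 1.26 with Rfx6 morpholino, -0.58 with BMS493 and 0.10 with cyclopamine. Without cyclopamine replicate 3 the cyclopamine median was -0.49, over 66 genes.

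The count over cyclopamine rests on few libraries. It was 15 and 17 without cyclopamine replicate 1 or 2 and 42 of 66 without cyclopamine replicate 3, where 5.64%, 5.84% and 7.67% of all genes were higher. It was 23, 21 and 23 without Rfx6 morpholino replicate 1, 2 or 3, where 6.28%, 5.92% and 10.2% of all genes were. With replicates 1 and 2 of the treated groups summed it was 8, against 1.77% of all genes, with a median log2 fold change of 1.40. At an unadjusted p under 0.05 it was 32, with no share over all genes beside it, so nothing is read from the 32. For BMS493 against Rfx6 morpholino foregut the summed setting left 30 lower genes of 65, against 8.86% of all genes.

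**Figure D3:**
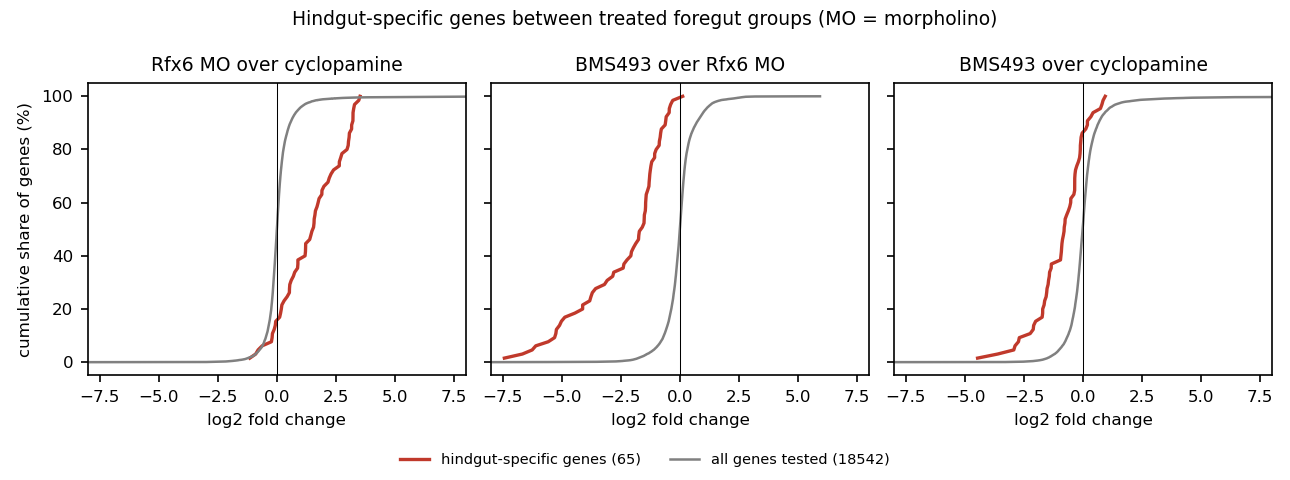
Cumulative share of genes by log2 fold change in the 3 comparisons between treated foregut groups, for 65 hindgut-specific genes (red) and for all 18542 genes tested (grey). The red curve lies right of the grey one in Rfx6 morpholino over cyclopamine (medians 1.55 and -0.00), and left of it in BMS493 over Rfx6 morpholino (-1.60 and -0.01) and in BMS493 over cyclopamine (-0.80 and -0.02). At most 55 of all genes and none of the 65 lie outside the axis range in a panel.

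The level of each gene was expressed as a part of the hindgut level, 0% being the mean of control foregut and 100% the mean of hindgut. The median part over the 67 genes was 13.4%, 13.6% and 27% in Rfx6 morpholino replicates 1, 2 and 3, or 18 ± 7.76% (SD, n = 3). With control foregut library 2 held out of the choice and taken as the foregut level, the mean of these medians was 10.01%. On the scale with all control foregut libraries, the median part over the 67 genes was -0.985%, -2.24% and 5.10% in cyclopamine foregut. In BMS493 foregut it was -3.86%, -1.63% and -3.75%. Genes differed widely among themselves. Between quartiles the part ran from 0.109% to 27.3% in Rfx6 morpholino replicate 1, from 1.19% to 26.8% in replicate 2 and from 14.7% to 38.6% in replicate 3.

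Within the Rfx6 morpholino group 38 of the 67 genes were at 10% of the hindgut level or more in all 3 libraries. Another 16 reached 10% in replicate 3 and in neither replicate 1 nor 2, while 11 reached it in none. Replicate 3 was the highest of the 3 libraries in 58 of the 67 genes, against 48.3% of all genes tested. At the top 4 genes reached a mean part of at least 50%. At rank 60 in hindgut, the gene with the largest mean part, at 93.8%, had 1.93, 1.83 and 1.21 CPM in Rfx6 morpholino foregut, 1.92, 1.06 and 2.27 CPM in hindgut, and 0.241, 0.141 and 0.308 CPM in control foregut. The gene at rank 13 in hindgut, with a mean part of 88.0%, had 37.7, 33.7 and 31.4 CPM in Rfx6 morpholino foregut, 43.2, 29.6 and 40.3 CPM in hindgut, and 10.6, 5.88 and 10.7 CPM in control foregut. For both, the Rfx6 morpholino libraries overlapped the hindgut range and lay clear of control foregut, and both were called higher than in control foregut (log2 fold changes 2.83 with SE 0.37 and 1.89 with SE 0.40, adjusted p = 0.000297 and 0.0109, edgeR). These genes were picked by their large part over the same control foregut libraries, whose low values were part of the choice. Pick and choice each favour a rise, so nothing more is read from these calls.

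At the other end 10 genes had a mean part below 0%. The lowest was the gene at rank 14 in hindgut, at -13.4%, with 3.10, 3.40 and 8.44 CPM in Rfx6 morpholino foregut, 36.8, 39.7 and 34.3 CPM in hindgut, and 7.24, 11.9 and 7.19 CPM in control foregut. Its Rfx6 morpholino libraries overlapped those of control foregut and its change was not called (log2 fold change -0.88, SE 0.36, adjusted p = 0.125, edgeR). The highest gene of hindgut also had no call, at 76.9, 78.0 and 200 CPM in Rfx6 morpholino foregut against 109, 188 and 112 CPM in control foregut. Parts of the hindgut level thus spread from below 0% to nearly 100% among the genes.

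**Figure D4:**
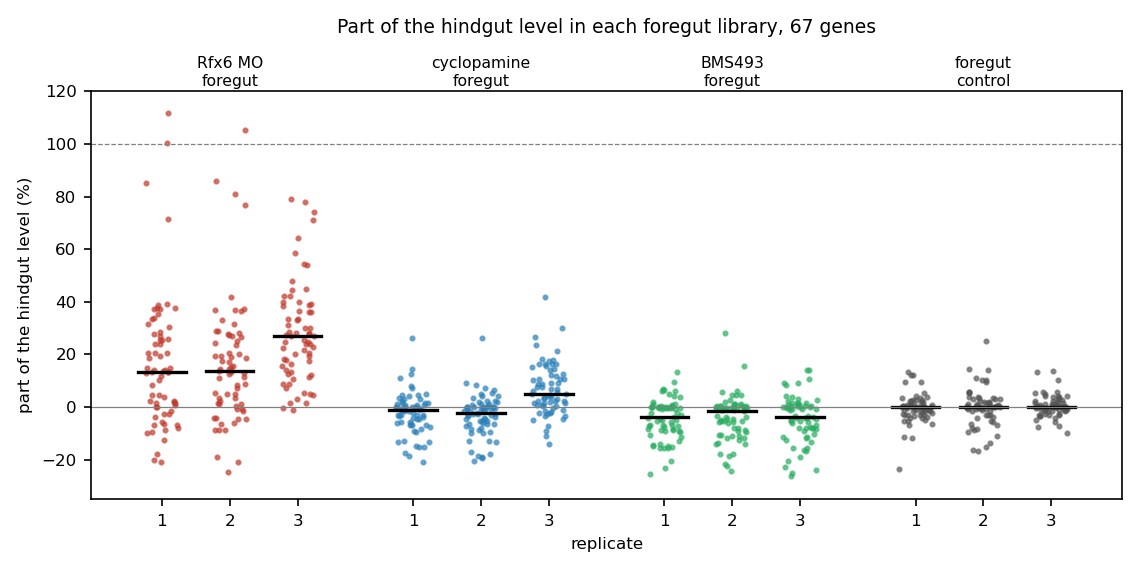
Part of the hindgut level of each of the 67 genes in each foregut library, in percent, with 0 at the mean of control foregut and 100 at the mean of hindgut. Bars are medians over genes. They stand at 13.4, 13.6 and 27 in the Rfx6 morpholino libraries and near or below 0 in the others, apart from 5.10 in cyclopamine replicate 3.

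A near-zero starting level was had by 7 genes, with means below 0.1 CPM in both control foregut and head with pharynx (a class set after values were seen). Their low values in these control regions are the choice itself and not a result. Their summed level was 98.9, 90.7 and 89.8 CPM in hindgut. It was 14.5, 14.8 and 27.6 CPM in Rfx6 morpholino foregut, against 0.285, 0.0849 and 0.346 CPM in control foregut. Cyclopamine replicates 1 and 2 had 0.133 and 0.0475 CPM and replicate 3 had 7.93 CPM, while BMS493 libraries had 0.282, 0.372 and 0.404 CPM and head with pharynx 0.132, 0.183 and 0.221 CPM. All 3 Rfx6 morpholino libraries and 1 cyclopamine library thus lay apart from all other foregut libraries. The median part of the hindgut level over these genes was 20.7%, 18.8% and 36.1% in Rfx6 morpholino replicates 1, 2 and 3 and 9.23% in cyclopamine replicate 3. Among the 7 genes the part ran from 2.28% to 37.2% in Rfx6 morpholino replicate 1, from 3.56% to 36.9% in replicate 2 and from 17.7% to 58.5% in replicate 3. In cyclopamine replicate 3 it ran from 1.5% to 18%. Of the 7 genes 6, 6 and 7 were at 1 CPM or more in the Rfx6 morpholino libraries and 4 in cyclopamine replicate 3. In every other foregut library 0 were, which for control foregut was fixed by the choice.

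The order of the groups was described over all 67 genes. The highest group besides hindgut was Rfx6 morpholino foregut in 54 of the 67 genes, control foregut in 7 and cyclopamine foregut in 6. The rule held control foregut and head with pharynx low in the 67, which favours another group as the highest. Among the 15218 genes at 1 CPM or more in hindgut, which had no such limit, Rfx6 morpholino foregut was the highest besides hindgut in 14.0%. In these genes head with pharynx was the highest in 44.8% and control foregut in 16.1%, so the shares are not directly comparable with the 67. BMS493 foregut was the lowest of the 4 foregut groups in 40 of the 67, against 25% of all genes tested.

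Cyclopamine foregut addresses the loss of Hedgehog signalling. Few hindgut-specific genes were called in it, and its libraries differed among themselves. In cyclopamine against control foregut 5 of the 65 genes (7.69%) were higher and 3 (4.62%) lower, where 10.2% and 9.71% of all genes were, with a median log2 fold change of 0.10 over the 65 and 0.00 over all genes. All cyclopamine libraries lay above all control foregut libraries in 7 of the 65, against 24.8% of all genes, and below them in 6, against 13.4%. Replicate 3 was above both other cyclopamine libraries in 57 of the 67 genes, against 43.0% of all genes tested, and at least 2 times both in 29, against 0.841% of all. Its median over the 67 genes was 1.93 CPM, where replicates 1 and 2 had 0.572 and 0.554 CPM. Without replicate 3, 4 genes were higher and 11 lower of 66, with a median of -0.49, where 8.83% of all genes were higher and 8.19% lower. By edgeR 0 were lower without cyclopamine replicate 1 or 2 (5 each at an unadjusted p under 0.05), against 4.82% and 4.92% of all genes, and 1 was lower without control replicate 2 or 3, against 11.9% and 8.21%. With replicates 1 and 2 summed 0 of 65 were lower (5 at an unadjusted p under 0.05) and 4 higher, against 2.56% and 3.28% of all genes. With only the 6 libraries compared 5 of 52 were higher and 3 lower, against 8.11% and 8.36%, so that the share of higher genes then lay slightly above that of all genes.

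BMS493 foregut addresses the loss of retinoic acid signalling. Few hindgut-specific genes were called higher in it. The share called lower lay above that of all genes in some fits and below it in others. In BMS493 against control foregut 20 of the 65 genes (30.8%) were lower and 2 (3.08%) higher, where 24.3% and 22.3% of all genes were. The 65 include genes at or near 0 CPM in control foregut, which could hardly be called lower. With only the 6 libraries compared, 51 genes passed the filter and 19 were lower, against 20.6% of all genes. With replicates 1 and 2 summed 14 of 65 were lower and 2 higher, against 17.2% and 15.5% of all genes, with a median of -0.53. With control library 1, 2 or 3 held out of the choice and compared alone, 12 of 67, 26 of 79 and 10 of 64 were lower, against 20.3%, 18% and 19.3% of all genes, so the share of lower genes lay below that of all genes in 2 of these 3 fits. The median log2 fold change was -0.58 over the 65 genes and -0.00 over all. Every BMS493 library lay below every control foregut library in 23 of the 65, against 18.4% of all genes, and above in 5, against 38.8%. BMS493 against cyclopamine foregut had 17 of the 65 genes lower (26.2%, against 20.8% of all) and 1 higher (17.9% of all), with a median of -0.80. Without cyclopamine replicate 3 this was 12 lower and 6 higher of 66, against 17.6% and 14.6% of all genes, with a median of -0.03. Leaving out BMS493 replicate 1 left 11 of 65 lower, against 16.4% of all genes, and summing replicates 1 and 2 left 9 of 65, against 10.1%. With only the 6 libraries compared 19 of 58 were lower and 0 higher (edgeR, and 0 at an unadjusted p under 0.05), against 22.4% of all genes each way.

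Of the genes with a hindgut mean of at least 10 CPM, XBXT10g010799 had the largest summed log2 fold change among those called by at least 2-fold in all 3 treated groups. It was the third highest of the 67 in hindgut, with 290, 205 and 213 CPM. Rfx6 morpholino foregut had 49.6, 46.9 and 61.6 CPM, cyclopamine foregut 9.98, 9.77 and 14.6 CPM and BMS493 foregut 15.8, 15.9 and 34.5 CPM, against 1.12, 1.70 and 1.88 CPM in control foregut. Head with pharynx had 33.6, 34.7 and 44.6 CPM. Control foregut was thus the lowest group, below every library of every other one. Its low values were part of the choice, and the gene was picked by its changes over the same control libraries. Both favour a rise. The gene rose in all 3 treated groups, by log2 fold changes of 5.07 (SE 0.38, adjusted p = 1.98e-05) with Rfx6 morpholino, 2.85 (SE 0.37, adjusted p = 0.000667) with cyclopamine and 3.70 (SE 0.37, adjusted p = 3.05e-05) with BMS493 (edgeR). It was also higher in Rfx6 morpholino than in cyclopamine foregut, by 2.22 (SE 0.30, adjusted p = 0.000886).

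XBXT10g019209 rose in all 3 treated groups too, and the same limits of choice apply to it. Hindgut had 73.5, 55.7 and 67.8 CPM. The gene had 28, 27.5 and 32.1 CPM in Rfx6 morpholino, 9.89, 10.2 and 18 CPM in cyclopamine and 13, 14.4 and 11.4 CPM in BMS493 foregut, against 5.51, 3.28 and 6.34 CPM in control foregut. All 9 treated libraries lay above the control foregut libraries and below the hindgut libraries. The log2 fold change over control foregut was 2.50 with Rfx6 morpholino, 1.28 with cyclopamine and 1.24 with BMS493, with SEs of 0.27, 0.26 and 0.26 (adjusted p = 0.000146, 0.00692 and 0.00281, edgeR).

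XBXT10g015548 went both ways. It was picked by its calls lower than control foregut, which favours a fall. The rule held control foregut low, which favours a rise. Hindgut had 39.3, 38.4 and 38.7 CPM. The gene had 17.6, 17.8 and 17.5 CPM in Rfx6 morpholino, 4.10, 3.71 and 6.57 CPM in cyclopamine and 4.64, 4.0 and 3.13 CPM in BMS493 foregut, against 10.3, 6.42 and 11 CPM in control foregut. The Rfx6 morpholino libraries lay above all control foregut libraries, the BMS493 libraries below all of them, and cyclopamine replicate 3 overlapped control replicate 2. The gene rose by 0.90 with Rfx6 morpholino (SE 0.23, adjusted p = 0.0205) and fell by 1.00 with cyclopamine (SE 0.24, adjusted p = 0.0123) and by 1.35 with BMS493 (SE 0.24, adjusted p = 0.000765) on the log2 scale. Between treated groups it was higher in Rfx6 morpholino than in cyclopamine foregut by 1.90 (SE 0.24, adjusted p = 0.000283, edgeR). The calls against control foregut with Rfx6 morpholino and cyclopamine were lost when replicates 1 and 2 of the treated groups were summed, at 0.89 and -0.88.

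XBXT10g016917 fell with both drugs. It was picked in the same way, by its calls lower than control foregut, which favours a fall. Hindgut had 12.7, 18.1 and 13.1 CPM. The gene had 1.97, 2.19 and 1.81 CPM in cyclopamine and 1.38, 1.52 and 2.16 CPM in BMS493 foregut, against 2.79, 3.37 and 3.11 CPM in control foregut, with no overlap. In Rfx6 morpholino foregut it had 2.32, 2.37 and 3.44 CPM, which overlapped control foregut. It fell by 0.67 with cyclopamine (SE 0.20, adjusted p = 0.0326) and by 1.03 with BMS493 (SE 0.20, adjusted p = 0.00127) on the log2 scale, and its log2 fold change was -0.24 with Rfx6 morpholino (SE 0.20, adjusted p = 0.451, edgeR). The cyclopamine call was lost without any 1 of the 3 cyclopamine libraries and without control replicate 2 or 3, at log2 fold changes from -0.75 to -0.60.

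**Figure D5:**
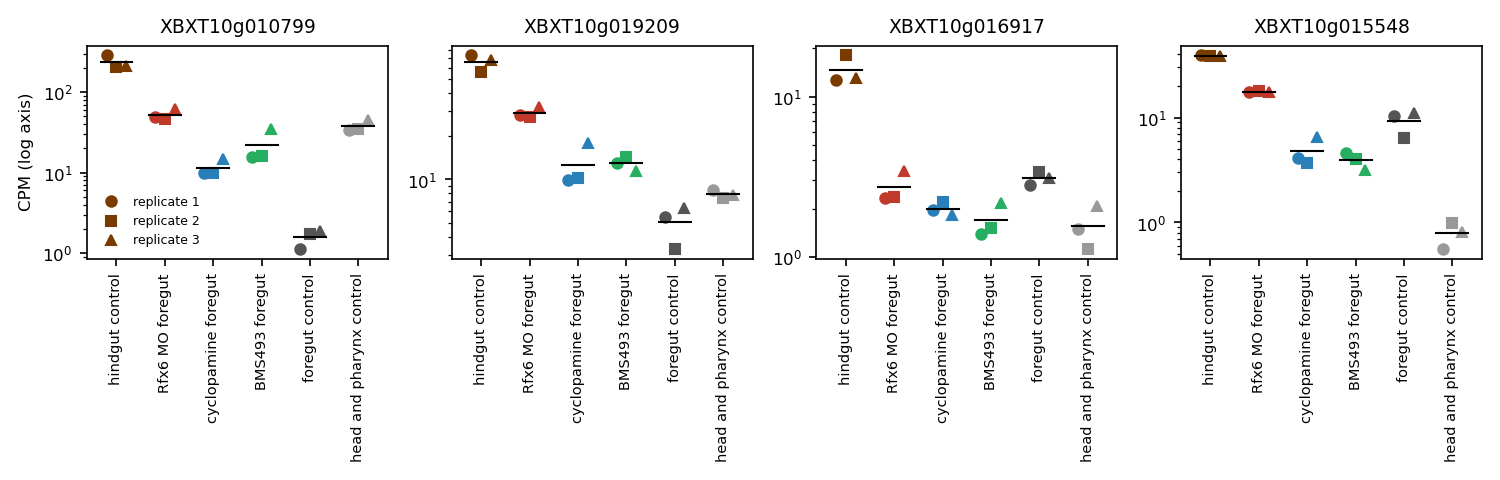
CPM of 4 named hindgut-specific genes in all 18 libraries on log axes, with a shape for each replicate and lines at means of 3. XBXT10g010799 and XBXT10g019209 are higher in all treated foregut groups than in control foregut, XBXT10g016917 is lower with both drugs, and XBXT10g015548 is higher with Rfx6 morpholino (17.5 to 17.8 CPM) and lower with BMS493 (3.13 to 4.64 CPM) than in control foregut (6.42 to 11 CPM).

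Genes that were less confined to hindgut were set beside the 67. The same rule at 2 times instead of 4 times added 304 genes, all of which could be tested. In Rfx6 morpholino against control foregut 38 of the 304 (12.5%) were higher and 93 (30.6%) lower, against 8.25% and 8.99% of all genes. The median log2 fold change over the 304 was -0.30. In Rfx6 morpholino against cyclopamine foregut 65 of the 304 (21.4%) were higher and 60 (19.7%) lower, against 10.2% and 11.1% of all genes. In BMS493 against control foregut 200 (65.8%) were lower and 10 (3.29%) higher, against 24.3% and 22.3% of all genes. The median part of the hindgut level over the 304 genes was -17.0%, -17.2% and -0.370% in Rfx6 morpholino replicates 1, 2 and 3. It was -9.64%, -10.4% and -1.96% in those of cyclopamine, so that replicate 3 was the highest here too. Both groups of genes were chosen on the same control libraries, and the difference between them was not tested. When the limit was 8 times, 30 genes were left, of which 28 could be tested. In Rfx6 morpholino against cyclopamine foregut 19 of the 28 were higher, against 10.2% of all genes. In BMS493 against Rfx6 morpholino foregut 27 of the 28 were lower, against 19.7% of all genes.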

How the data were processed

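Estimated counts per gene, held as whole numbers, and TPM values, scaled by the authors for length and depth, were deposited for 18 libraries. RSEM 1.3.0 and Bowtie2 appear in the submitters' processing notes. A genome build or counting strand was not given in the sources used here. Genes with near-identical copies or overlapping neighbours are therefore uncertain. The members and gene lists were chosen with earlier results of these data known.

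CPM is the count over the library total. The 12 foregut libraries went into 1 fit in edgeR 4.0.16 (R 4.3.3; TMM scaling, filterByExpr with a minimum count of 10, robust quasi-likelihood test, group as the only term), with p-values adjusted over all 18542 genes tested. The same code was run on simulated counts, in which only genes of moderate or high count were changed. That run does not bear on genes with few counts. Alternatives used DESeq2 1.42.0, other scalings, filters, sets of libraries and limits of the rule. No label ties libraries to clutches or parents, so p-values measure the spread between these pools, which may be technical in part.

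The symbol-based gene and marker lists could not be used. Named identifiers are the 2 that rose (by at least 2-fold in the most treated groups, hindgut mean at least 10 CPM) and the 2 that fell (in the most treated groups, control foregut mean at least 1 CPM), with ties broken by the summed log2 fold change. Genes given by rank in hindgut were chosen after their values were seen.

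Pairing of same-numbered libraries was checked by the correlation of their deviations from group means. It was at least 0.196 in all 3 pairs of Rfx6 morpholino with cyclopamine foregut and at least 0.504 in those of BMS493 with Rfx6 morpholino foregut, so the numbers were taken to pair these groups. In BMS493 with Rfx6 morpholino foregut only 2 libraries correlated best with their own number. Replicates 1 and 2 lay close together in each treated group by the median difference. A shift shared by replicate 3 of both groups could then give positive correlations in all 3 pairs. The check therefore cannot show that replicate 1 pairs with 1 and replicate 2 with 2. In the other 4 comparisons, BMS493 with cyclopamine foregut among them, at least 1 pair was below 0.1. The pairing was thus not uniform across the treated groups and is uncertain.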

Additional observations from a re-analysis of the deposited data

How the results depend on the processing

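Over the counts of called genes, the number of genes and the part of the hindgut level, 293 alternative values stayed within 1.5 times the count or within 1 SD of the level and 81 did not. No called fold change of a named gene turned direction. Where a comparison with control foregut is concerned, its libraries also chose the genes. The filter on low counts left 2 genes untested, at ranks 46 and 56 in hindgut. The rule at 3-fold gave 120 tested genes and the rule at 8-fold 28, so counts at these limits also move with the size of the set. These counts came from the main fit, so the shares over all genes given above for that fit apply. The causes of the changes below were not tested. Some of the fits also held fewer libraries.

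Rfx6 morpholino against control foregut (33 higher, 0 lower) had 15 higher with replicates 1 and 2 of the treated groups summed, and 12, 14 and 9 higher with control library 1, 2 or 3 held out. Lower genes numbered 1 with DESeq2, 3 with the BMS493 and Rfx6 morpholino groups on their first 2 libraries, 5 with all 3 treated groups on their first 2 libraries (an alternative chosen after seeing the data), 9 with control library 2 held out and 7 with the rule at 3-fold. Of all genes 11.3% were lower with DESeq2. This share was 11.3% with the BMS493 and Rfx6 morpholino groups on their first 2 libraries and 11.5% with all 3 treated groups so. Without 1 library there were 20 to 36 higher and 0 to 3 lower.

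Rfx6 morpholino against cyclopamine foregut (35 higher, 1 lower, of 65 tested) had 8 of 65 higher when summed. With the rule at 8-fold it had 19 of 28 higher, so the count fell with the size of the set. Lower genes numbered 4 with the BMS493 and Rfx6 morpholino groups on their first 2 libraries, 3 with all 3 treated groups so, 4 at 3-fold, 0 at 8-fold, 0 at 5 CPM and 2 with the rule on TPM. Of all genes 13.8% were lower with the BMS493 and Rfx6 morpholino groups on their first 2 libraries, and 11.8% with all 3 treated groups so. Without 1 library there were 15 to 42 higher and 1 to 4 lower.

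BMS493 against Rfx6 morpholino foregut (0 higher, 51 lower, of 65 tested) had 1 higher with both groups on their first 2 libraries. It had 30 of 65 lower when summed, 80 of 120 at 3-fold and 27 of 28 at 8-fold. Of all genes 18.7% were higher with both groups on their first 2 libraries. Without 1 library there were 0 higher and 39 to 52 lower.

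BMS493 against control foregut (2 higher, 20 lower) had 4 higher with DESeq2, 5 with all 3 treated groups on their first 2 libraries and 1 at 8-fold. With control library 1, 2 or 3 held out the median log2 fold change of the chosen genes was -0.62, -0.77 and -0.66. Lower genes numbered 12 and 10 with control library 1 or 3 held out, 56 at 3-fold and 6 at 8-fold. Of all genes 23.6% were higher with DESeq2 and 22.8% with all 3 treated groups on their first 2 libraries. Leaving out 1 library gave 2 to 3 higher and 16 to 21 lower.

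Cyclopamine against control foregut (5 higher, 3 lower) had 8 higher with DESeq2, 8 at 3-fold and 3 at 8-fold. With control library 1, 2 or 3 held out the median log2 fold change of the chosen genes was 0.14, -0.04 and 0.14. Lower genes numbered 7 with DESeq2, 6 with all 18 libraries in 1 fit and 5 with the replicate block. There were 5 lower with the BMS493 and Rfx6 morpholino groups on their first 2 libraries and 15 with all 3 treated groups so. The count of lower genes was 0 when summed, 12 at 3-fold, 0 at 8-fold and 5 on TPM. Of all genes 11.6% were higher and 13.1% lower with DESeq2. The share of lower genes was 10.4% with all 18 libraries and 10.7% with the replicate block. It was 12.4% with the BMS493 and Rfx6 morpholino groups on their first 2 libraries and 11.6% with all 3 treated groups so. Leaving out 1 library gave 4 to 7 higher and 0 to 11 lower.

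BMS493 against cyclopamine foregut (1 higher, 17 lower) had 0 higher without a filter, with only the 6 libraries compared, when summed and at 8-fold, 2 with the replicate block and at 3-fold, and 6 with all 3 treated groups on their first 2 libraries. Lower genes numbered 9 when summed, 39 at 3-fold and 6 at 8-fold. Of all genes 13.9% were higher without a filter, 8.32% when summed and 19.4% with the replicate block. This share was 16.9% with all 3 treated groups on their first 2 libraries. Leaving out 1 library gave 0 to 6 higher and 11 to 18 lower.

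The rule gave 122 genes at 3-fold and 30 at 8-fold, and 64 to 79 without 1 control library. On TPM it gave 89 genes, of which 63 were among the 67. On CPM with TMM scaling it gave 89 genes, which included all 67. The median part of the hindgut level in Rfx6 morpholino foregut (18%) was 9.86% at 3-fold and 10.01% with control library 2 held out. In BMS493 foregut (-3.08%) it was -7.61% at 3-fold, -0.147% at 8-fold, -0.637% on TPM and -5.64% with control library 2 held out. Leaving out 1 library gave 13.5% to 20.3% in Rfx6 morpholino, -1.61% to 2.06% in cyclopamine and -3.81% to -2.69% in BMS493 foregut.

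With the replicate number as a block, 41 of 65 were higher in Rfx6 morpholino than in cyclopamine foregut, against 11.3% of all genes. There 1 was lower, against 12.6%. In BMS493 against Rfx6 morpholino foregut 49 of 65 were then lower, against 20.5% of all genes. No count of these paired comparisons moved by over 1.5 times. Among the alternative fold changes of the named genes 33 lost and 2 gained their call, and 385 did neither.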
